A study of Homo sapiens with 6 samples.

Results

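The 10 genes described here mark the luminal and the basal lineage of the breast epithelium: ESR1, GATA3, FOXA1, EPCAM, KRT8, KRT18 and KRT19 on the luminal side, and KRT5, KRT14 and TP63 on the basal side. They were chosen by name, and all 10 were found among the 19792 genes of the expression table. Of these 10 genes, 5 had a mean normalized count of at least 10, namely KRT18, GATA3, TP63, KRT8 and KRT19. KRT14, EPCAM, KRT5, ESR1 and FOXA1 were under 10. Over the whole table, 13548 of 19792 genes (68.5%) were at or above 10, against 50% of the lineage markers.

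The measurements were made by RNA-seq of BT-549 cells, a human triple-negative breast cancer (TNBC) line, that is, one classed as lacking estrogen receptor, progesterone receptor and HER2 amplification. All of the cells carried an inducible WDR5 shRNA vector with puromycin resistance (BT-549/tet-WDR5shRNA), and both groups come from this 1 cell line. WDR5 is a core subunit of the COMPASS complexes, which methylate histone H3 on lysine 4. The 3 control libraries came from cells given vehicle (0.1% DMSO) and the 3 others from cells given 500 ng/ml doxycycline (DOX), which switches the shRNA on. The level analysed is the authors' mean over all 6 libraries, so that a difference between DOX and vehicle is not described here. For WDR5 itself, this mean was 1143, and it cannot show whether the gene was silenced. In a bulk sample, fewer cells that express a gene and less RNA per cell give the same mean.

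The mammary duct has an inner layer of luminal cells and an outer layer of basal, contractile cells, and carcinomas keep the gene programs of these layers to different degrees. Keratins form filaments from pairs of a type I and a type II protein. KRT8 (type II) pairs with KRT18 or KRT19 (type I) in luminal cells, whereas KRT5 (type II) pairs with KRT14 (type I) in basal cells. ESR1, FOXA1 and GATA3 are transcription factors that act together in hormone-responsive luminal cells. TP63 encodes p63, a relative of p53 that maintains the basal cells of stratified and glandular epithelia, and EPCAM is an adhesion protein of the epithelial cell surface.

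RefSeq promoter sequences (GRCh38.p14, from 250 bases before to 50 bases after a transcription start) were matched by symbol for 6 of the 10 genes, GATA3, FOXA1, ESR1, TP63, KRT5 and KRT8. EPCAM, KRT14, KRT18 and KRT19 were not matched. The 3 stretches below are the 100 bases just before the start of the canonical transcript of GATA3, TP63 and FOXA1. They are shown because they stand for the luminal and the basal transcription factor with the highest levels and for the marker with the lowest mean. Capitals mark CG dinucleotides, the sites that DNA methylation uses.
GATA3, chr10:8054588-8054687, plus strand: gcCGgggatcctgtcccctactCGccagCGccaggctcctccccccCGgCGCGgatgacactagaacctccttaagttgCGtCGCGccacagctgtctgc
TP63, chr3:189631289-189631388, plus strand: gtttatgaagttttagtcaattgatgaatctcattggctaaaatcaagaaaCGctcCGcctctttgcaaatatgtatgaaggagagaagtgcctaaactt
FOXA1, chr14:37595250-37595349, minus strand: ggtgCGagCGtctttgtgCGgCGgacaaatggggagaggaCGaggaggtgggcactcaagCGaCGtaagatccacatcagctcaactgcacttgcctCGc
These stretches hold 9 CG dinucleotides in GATA3, 2 in TP63 and 8 in FOXA1. DNA methylation was not measured, and a relation of CG content to expression level was not tested.

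Across the full 300-base windows at canonical starts, the CG count was 34 for FOXA1, 29 for GATA3, 17 for ESR1, 7 for TP63 and 7 for KRT5, beside a median of 14 over the 35116 promoters of the RefSeq table. The window matched for KRT8 lies 21393 bases from its canonical start and was left out. The letters GGGCGG, a core of SP-family binding sites, were found on either strand in 3 of these 5 windows (GATA3, FOXA1 and ESR1) and in 45.0% of all promoters. TATAAA, the TATA box core, was found in 1 of 5, that of TP63, and in 11.5% of all promoters. TGACTCA, the site of AP-1, was found in none of the 5 windows and in 4.95% of all promoters. For TP63, the window is that of the long (TA) form, and the start of the short (ΔN) form that basal cells mainly use was not examined.

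The markers split into a high, a middle and a near-zero group. KRT18 had the highest mean normalized count, 435. GATA3 followed with 362 and TP63 with 305. These 3 genes span both sides of the list, 2 luminal and 1 basal. KRT8 had a mean normalized count of 57.3, KRT19 of 17.7 and KRT14 of 7.11. The remaining 4 genes were near 0, with 1.30 for EPCAM, 0.909 for KRT5, 0.790 for ESR1 and 0.516 for FOXA1. No SD is given, since the deposited value is a single mean over both groups. The nearest values on either side of the limit of 10 are those of KRT19 and KRT14.

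**Figure D1:**
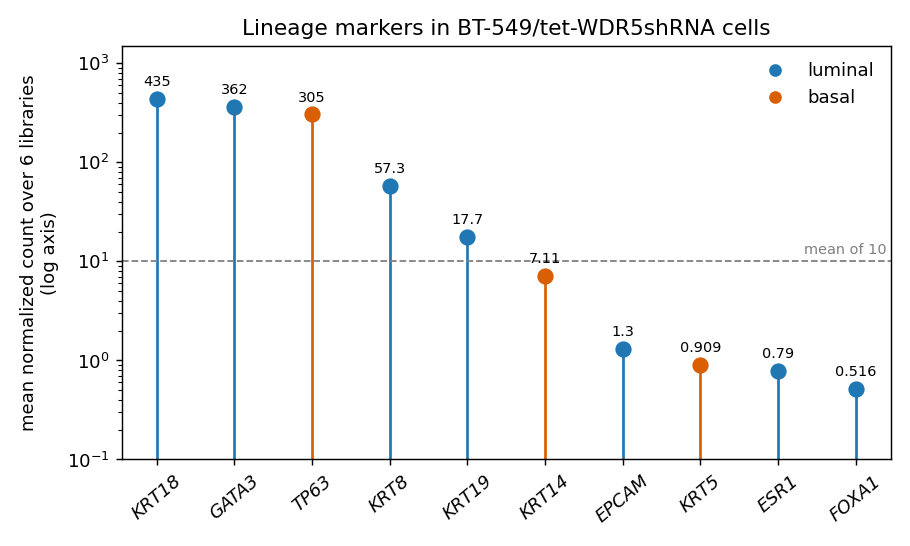
Mean normalized count over 6 libraries (log axis) for each of the 10 lineage markers, ordered by level, with luminal genes in blue, basal genes in orange and a dashed line at a mean of 10. KRT18 (435), GATA3 (362) and TP63 (305) stand above KRT8 and KRT19, and the other 5 markers lie under the line.

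By mean normalized count, not divided by length, even the highest of these genes were of middle rank in the transcriptome. A rank per kb over all genes was not computed. The mean normalized counts of all genes sum to 26551206, which makes the level of KRT18 equal to 16.4 counts per 1000000 and that of GATA3 to 13.6. TP63 was at 11.5 and FOXA1 at 0.0194 counts per 1000000. Among the 13548 genes with a mean of at least 10, 40.7% were lower than KRT18, 37.5% were lower than GATA3 and 34.1% were lower than TP63. KRT8 and KRT19 lay near the bottom of the same genes, with 15.1% and 5.06% of them lower. The median of the 10 markers was 12.4, beside a median of 187 over all genes of the table.

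Divided by the length of the canonical transcript, which is needed to set 1 gene against another, the levels kept nearly the same order. KRT18 was at 308 mean normalized counts per kb, GATA3 at 118 and TP63 at 61.7. KRT8 was at 32.1 per kb, KRT19 at 12.7 and KRT14 at 4.35. EPCAM was at 0.843 per kb, KRT5 at 0.406, FOXA1 at 0.147 and ESR1 at 0.125. KRT18 was thus 2.62 times GATA3 per kb, and GATA3 was 1.91 times TP63 per kb. Whether these neighbours differ beyond the spread between libraries could not be examined for KRT18, GATA3 and TP63, for which only the mean was at hand. The position of FOXA1 against ESR1 turned with the choice of length.

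For the 7 lower genes, the reads behind the mean could be counted. A gene with a single read in a single library has 1 of 6 fixed values, which show what a read of each library adds to the mean, from 0.124 to 0.226. A low mean is a sum of whole multiples of these 6 steps, and for each of the 4684 genes with a mean under 3, exactly 1 set of whole reads gave the listed value within the rounding of its written digits. The libraries are named A to F here in falling order of depth. The deepest library had 1.82 times the size factor (the divisor that DESeq2 uses for depth) of the shallowest. Which of the 6 libraries received vehicle and which DOX is not known from these values and was not inferred, so no mean or comparison of groups is given.

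ESR1, which encodes estrogen receptor alpha, rested on 5 reads in all 6 libraries together. There were 2 reads in library A, 1 each in B, D and F, and none in C and E. FOXA1, a pioneer factor that opens chromatin for the estrogen receptor, rested on 4 reads, 3 in library A and 1 in C. EPCAM had 7 reads, 2 each in libraries C, E and F and 1 in B. KRT5 had 6 reads, 2 in A, 1 in C and 3 in D. No library held more than 3 reads of any of these 4 genes, and each gene had no read in at least 2 libraries. The exact Poisson 95% interval of the total was 1.62 to 11.7 reads for ESR1 and 1.09 to 10.2 for FOXA1. For EPCAM it was 2.81 to 14.4 reads, and for KRT5 2.20 to 13.1. The intervals cover counting error only and overlap among all 4 genes. They are of read totals not divided by transcript length, and an order among the 4 genes per length was not tested.

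KRT14, the type I keratin of basal cells, had 47 reads, and its normalized counts ranged widely across the libraries. They were 12.6 in A, 7.75 in B, 3.45 in C, 12.4 in D, 5.05 in E and 1.36 in F. The highest library was 9.32 times the lowest, which rested on 1 read. The 95% counting intervals of these libraries, 7.37 to 20.3 in A and 0.0344 to 7.56 in F, overlapped slightly. Part of the KRT14 transcript is shared with near-identical copies: 24.2% of its 50-base stretches are also found in transcripts of other genes. Those found in KRT16 make up 11.3% of all KRT14 stretches. The count of KRT14 is uncertain for this reason, and the size of the effect was not tested.

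KRT19, the type I keratin that lacks a tail domain, was detected in every library. It had 104 reads, with normalized counts of 10.4 in A, 18.9 in B, 16.4 in C, 13.4 in D, 27.8 in E and 19.0 in F. The highest was 2.66 times the lowest, and their counting intervals (17.4 to 42.0 and 5.69 to 17.5) just overlapped. KRT8 had the smallest ratio of highest to lowest of the 3 genes with reads in every library. It also had the most reads, and fewer reads widen such a ratio through counting error alone. The 6 libraries hold both groups, so the ratio is not a spread of replicates. Its 345 reads gave normalized counts of 50.6 in A, 54.2 in B, 54.4 in C, 47.5 in D, 69.4 in E and 67.9 in F, a range of 1.46 times from lowest to highest. The KRT8 intervals of the highest library (52.3 to 90.3) and the lowest (34.8 to 63.4) overlapped. In all 6 libraries KRT8 was above KRT19, and it was above KRT14 in all 6 as well. KRT19 was above KRT14 in 5 of 6 libraries, with library A as the exception. These 3 transcripts are of similar length, 1784, 1390 and 1636 bases.

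**Figure D2:**
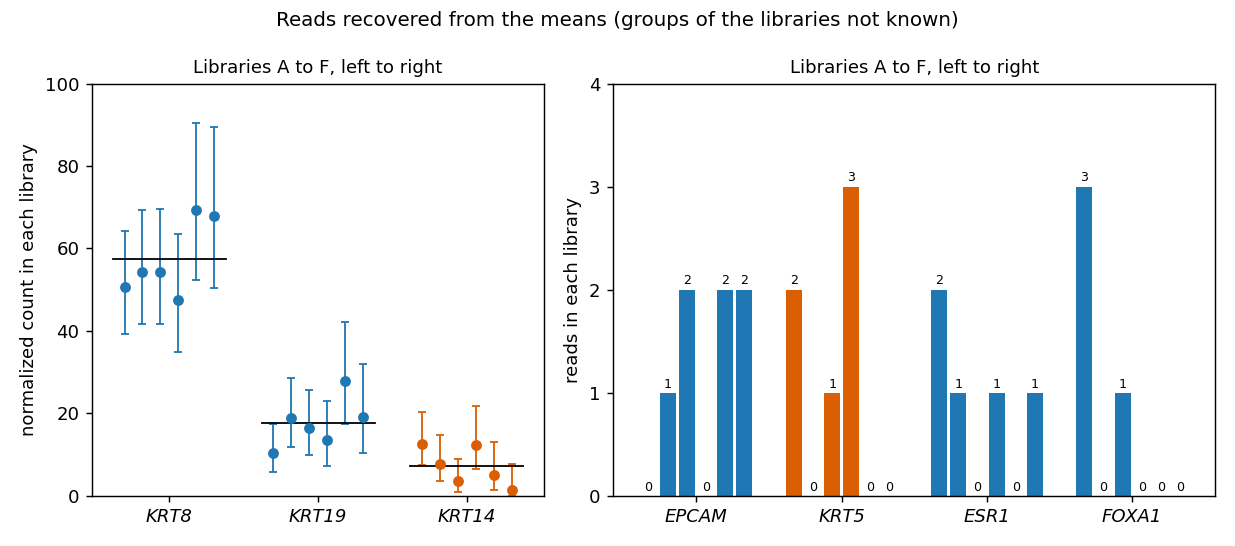
Left, normalized count in each of 6 libraries (A to F from left to right) for KRT8, KRT19 and KRT14, with exact Poisson 95% intervals as error bars and the mean as a line; right, the number of reads of EPCAM, KRT5, ESR1 and FOXA1 in the same libraries. KRT8 lies between 47.5 and 69.4 in every library, whereas no bar on the right exceeds 3 reads.

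The luminal keratin pair was unequal. Per kb, KRT18 was 9.58 times KRT8, its usual type II partner, and 24.2 times KRT19. KRT7, another type II keratin of simple epithelia, was at 1050 per kb, or 32.7 times KRT8 and 3.41 times KRT18. Among the 26 keratin genes of the table, 9 had a mean of at least 10, where 68.5% of all genes did. Of these keratins, KRT7 and KRT80 alone were above KRT18 per kb. The 6 with the highest mean were KRT80, KRT7, KRT18, KRT10, KRT8 and KRT81. KRT7 made up 49.7% of the summed keratin level per kb, KRT80 24.6% and KRT18 14.6%. The basal pair KRT5 and KRT14 made up 0.0192% and 0.206% of it.

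**Figure D3:**
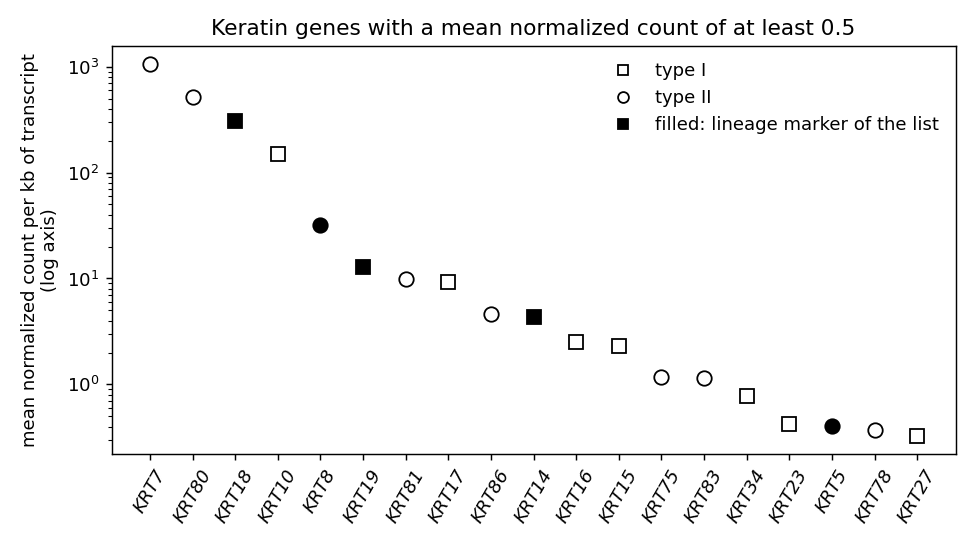
Mean normalized count per kb of canonical transcript (log axis) for the keratin genes with a mean of at least 0.5, type I as squares and type II as circles, with the lineage markers filled. KRT18 comes next after KRT7 and KRT80, and KRT5 lies near the end of the order at 0.406 per kb.

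Reads of KRT8 and KRT18 are hard to assign. GENCODE 44 lists 51 pseudogenes named after KRT8 and 67 named after KRT18, of which KRT18P55 alone was analysed here, with a mean of 0.440. Of the 50-base stretches of the canonical transcript, 39.2% in KRT8 and 52.8% in KRT18 also occur in a transcript of another gene. The genes themselves lie next to each other on chromosome 12 of GRCh38, KRT8 from 52897187 to 52949954 on the minus strand and KRT18 from 52948871 to 52952906 on the plus strand, and their annotated spans overlap by 1084 bases. Of the KRT18 stretches, 23.9% are found in KRT8 transcripts on the opposite strand. The libraries are stranded, but the strand setting and the handling of reads with several positions were not stated, and their part in the KRT18 to KRT8 ratio was not tested. When only stretches without a copy elsewhere were counted as length, the ratio was 12.4.

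Among the transcription factors, GATA3 was present while its luminal partners were near 0. GATA3 spans bases 8045378 to 8075198 of chromosome 10 (GRCh38, GENCODE 44), and its canonical transcript has 6 exons and 3083 bases. No 50-base stretch of it occurs in another gene's transcripts. An antisense gene, GATA3-AS1, overlaps the gene span by 3035 bases and had a mean of 7.43. TP63 lies on chromosome 3 from 189631389 to 189897276, with 14 exons in a canonical transcript of 4944 bases and 14 annotated transcripts, which the table does not separate. TP63 was thus well above the basal keratins that it accompanies in basal cells, at 14.2 times KRT14 per kb. ESR1 (chromosome 6, 151656691 to 152129619) and FOXA1 (chromosome 14, 37589552 to 37596059) share no 50-base stretch with the annotated transcripts of other genes either.

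Summed per kb, the 7 luminal markers came to 471 and the 3 basal markers to 66.4, a ratio of 7.10. The sums are over lists of unlike size, so this is not a ratio per gene. The median per kb was 12.7 for the luminal and 4.35 for the basal markers. The ratio of the sums depended on few genes, since KRT18 and GATA3 held most of the luminal sum and TP63 nearly all of the basal sum. With the keratins alone, the luminal sum was 353 and the basal sum 4.75.

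The other markers of both lineages were described from lists of genes fixed by name. Of 22 other luminal markers, 17 were analysed and 13 of these (76.5%) had a mean of at least 10, against 68.5% of all genes. The other 5 listed, TFF1, TFF3, AGR2, KIT and ANKRD30A, had no value and are left out of this share. The lowest mean of any gene was 0.124, equal to 1 read in library A, so genes without a read are not among those with a value. Whether TFF1, TFF3, AGR2, KIT and ANKRD30A had no read was not examined. The 4 highest of the analysed luminal genes were XBP1, a factor of secretory cells, at 3088 per kb, CD24 at 1878, KRT7 at 1050 and the mucin MUC1 at 948. The 4 analysed luminal genes under 10 were CLDN3, ELF5, PGR and SPDEF, with means of 1.10, 0.868, 0.801 and 0.727. Of 22 other basal and myoepithelial markers, 20 were analysed and 18 of these (90%) had a mean of at least 10, beside the same 68.5%. KRT6A and KRT6B had no value and are left out of this share. The 4 with the highest mean before division by length were CAV1 (11625 per kb), the peptidase gene MME (1229 per kb), the P-cadherin gene CDH3 (1547 per kb) and ITGA6, an integrin of basal cells (843 per kb). Per kb, the smooth muscle actin gene ACTA2, at 3345, came after CAV1 and above the other 3. All 16 mesenchymal genes listed had a mean of at least 10. The 4 with the highest mean were CD44 (8845 per kb), VIM (22183 per kb), FN1 (3631 per kb) and COL1A2 (4848 per kb), and SPARC, at 5696 per kb, was above FN1 and COL1A2 on that scale. The median level per kb was 15.1 for the luminal list, 23.3 for the basal list and 1055 for the mesenchymal list, beside 8.52 for the 10 markers.

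Set against the label of TNBC, the genes of the hormone receptors were near 0. PGR, the progesterone receptor gene, had a mean of 0.801 from 5 reads, 4 in library C and 1 in F, and ESR1 had the same number of reads. ERBB2, the gene of HER2, had a mean of 1221 and a level of 268 per kb, close to that of KRT18. CDH1, the E-cadherin gene of epithelial junctions, was at 12.4 per kb. PGR, ERBB2, CDH1, ACTA2 and SPARC were singled out after their values were seen.

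**Figure D4:**
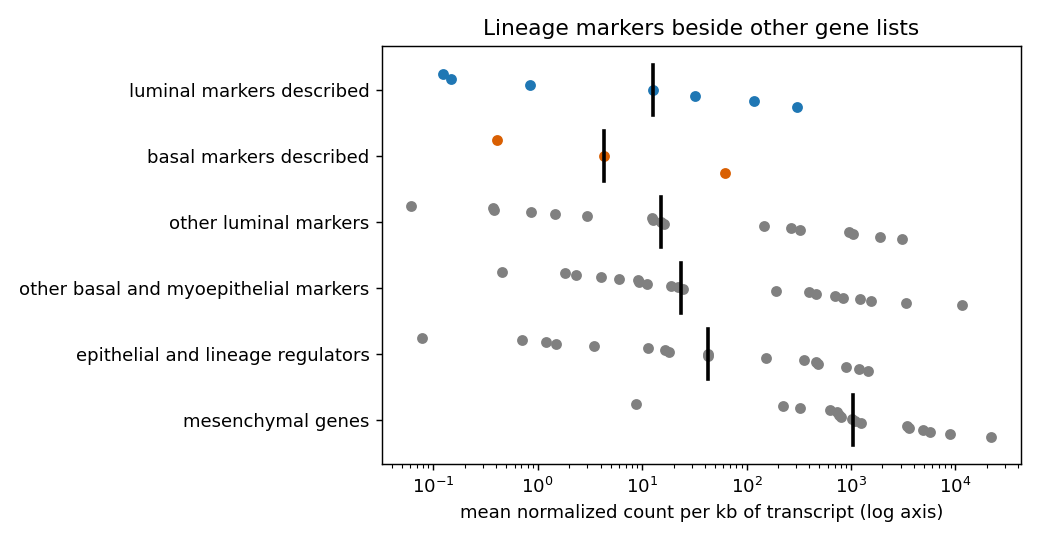
Mean normalized count per kb of canonical transcript (log axis) for the luminal and basal markers described and for 4 other gene lists, 1 point per analysed gene, with the median of each list as a vertical bar. The mesenchymal genes center on 1055 per kb and the luminal and basal markers described on 12.7 and 4.35.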

How the data were processed

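Total RNA from triplicate cultures was made into TruSeq stranded mRNA libraries. Per the labels and the paper's methods, the authors aligned reads to GRCh38 with STAR and normalized gene counts with DESeq2. The gene counter and its strand setting are not given in the sources used here. The deposited signal per gene is a mean normalized count, averaged by the authors over all 6 libraries and not divided by length. The other 5 columns hold the authors' own comparison of DOX with vehicle (fold change, its error, statistic, p-value and adjusted p-value) and were not used, so no test of DOX against vehicle was made. Total reads per library are unknown.

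The 10 markers and all lists were chosen with earlier results of these data known. Named genes were the 10 markers, the 4 highest means of each list, the 6 highest keratins and WDR5. The genes without a value or under 10 in the other luminal and basal lists were added after the values were seen. Others are named in the text as chosen after their values were seen. Canonical transcripts came from GENCODE 44. Whole reads per library were solved from the mean, whose 15 written digits allowed this up to KRT8 (tolerance 0.5 units of the last digit plus a relative 1e-15). For KRT8, 1 other solution lay within 20 times the remaining error of the first. The solver was also run on simulated means with known reads, and the outcome of that run is not reported here. Reads of KRT18, GATA3 and TP63 could not be solved, because too many sets of reads give the same digits. Intervals and counts of reads cover counting error only. Software was Python 3.11.15 with pandas 2.3.3, scipy 1.17.1, matplotlib 3.10.9 and numpy 2.4.6.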

Additional observations from a re-analysis of the deposited data

How the results depend on the processing

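The number of markers counted as expressed was 5 at a minimum mean of 10, 4 at 50 and 7 at 1. Of all 19792 genes, 13548 were at or above 10 and 11649 at or above 50, and the number at or above 1 was not computed. With coding length, and with no length, 2 markers changed place in the order by level (ESR1 and FOXA1 exchanged places), and with the longest transcript none did. The ratio of summed luminal to summed basal levels was 7.10 with all markers, 74.2 with keratins alone and 34.4 without the highest marker of each side. It was 12.6 when only stretches without a copy elsewhere counted as length, an alternative added after the values were seen. The values 74.2 and 34.4 both leave out TP63, by construction. KRT18 over KRT8 was 7.59 without length and 12.4 with that added alternative. Of the immune cell markers, 3 were at or above 10 and 1 at or above 50, and the counts of the other lists stayed within 1.5 times. No paired analysis was possible because the table used gives 1 mean over all libraries and the reads recovered from it cannot be tied to a culture or a group, and for the same reason the planned comparison of DOX with vehicle, its other normalization and filter, and leaving out each replicate were not run. Depth limits ESR1, FOXA1, EPCAM and KRT5, which rest on 4 to 7 reads.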

Other observations

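Regulators of epithelial identity other than the markers above covered a wide range of levels in the same mean over 6 libraries. Of 18 listed, 17 were analysed and 13 of these (76.5%) had a mean of at least 10, against 68.5% of all genes. FOXC1, a factor often used to mark basal-like tumors, was at 1468 per kb, KLF5 at 1184, TFAP2A at 900 and RUNX1 at 488. The 4 analysed genes under 10, GRHL2, ESRP2, OVOL1 and OVOL2, had means of 6.27, 5.18, 2.13 and 0.124. Related epithelial factors were at or above 10, with means of 233 for EHF, 132 for ELF3, 59.8 for GRHL1 and 13.0 for ESRP1. These 8 genes were named after their values were seen.

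Markers of endothelial cells and adipocytes were under 10, whereas 3 immune markers were not. Over all genes, 68.5% were at or above 10. Of 5 endothelial markers analysed, none had a mean of at least 10, and the highest was PECAM1 with 2.86. Of 3 adipocyte markers analysed, none reached 10, and FABP4 was the highest with 5.98. Of 5 immune markers analysed, 3 (60%) reached 10, namely CD68 with a mean of 1813, PTPRC with 44.7 and CD14 with 24.0. The lysosomal protein CD68 is also made by cells outside the immune system.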
